A study of Mus musculus with 16 samples.

Results

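The odorant receptor genes of mouse chromosome 1 were followed through 16 Clariom S expression arrays of sorted olfactory cells. They were taken as the probesets that the array numbers to chromosome 1 and annotates with a numbered Olfr symbol, leaving out Olfr16 and pseudogenes, which gave 26 probesets of 26 genes among 22206 gene probesets in all. The rule itself uses no measured value. The cells came from the olfactory mucosa of S100a5-tauGFP mice of both sexes, 7 to 12 weeks old, in which a tau-GFP reporter marks expression of S100a5, a calcium-binding protein gene that follows the activity of olfactory sensory neurons. Each array measured the GFP+ or the GFP- cells of a pool of 3 mice. The 4 groups had 4 arrays each: both fractions from mice that received an odorant, and both fractions from mice that received vehicle, that is, filtered air. All mice carried the reporter and stayed alone in clean-air chambers for 40 h, and from 26 h on the odorant or vehicle was delivered for 10 s every 20 min. The sample labels name bourgeonal as the odorant and the series title names indole, so it is called the odorant here. The gate between the fractions was not given in the sources used here.

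Odorant receptors are G protein-coupled receptors that sit in the cilia of olfactory sensory neurons and signal through the G protein subunit Gnal, the adenylyl cyclase Adcy3 and a cyclic nucleotide-gated channel. Each mature neuron expresses a single receptor gene from a single allele, so a receptor's level in a cell population follows how many of its neurons are there and how much receptor RNA each holds. On these arrays fewer neurons of a type and less receptor RNA per neuron cannot be told apart.

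The values are log2 probeset signals. The background level of an array was the 95th percentile of 23 control probesets that match no mouse sequence, 6.57 to 6.87 over the 16 arrays, and a probeset whose arrays in a group all lay at or under it is called at background there. Of the 26 receptors, 18 to 21 exceeded the background on a GFP+ array and 18 to 20 on a GFP- array. On all 16 arrays 13 receptors did so, 9 on some of them, and 4 on none: Olfr1413, Olfr427, Olfr420 and Olfr248. Within groups, r between arrays was 0.987 to 0.994 over all gene probesets, which are not replicates of each other. Arrays numbered 4 stood apart in Eif2s3y, a gene of the Y chromosome, with 2.63 to 3.41 there against 9.95 to 11.2 on the rest, and counts without them are given below.

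The RefSeq gene order puts the 26 receptors in 2 clusters, separated at gaps over 1000000 bases. The first runs from Olfr1416 to Olfr12 and holds 8 receptors. The second runs from Olfr1408 to Olfr220 and holds 18. The gene models span 924 to 1121 bases in 24 cases, and longer stretches for Olfr1414 (7468 bases) and Olfr1408 (7135).

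The first question was which chromosome 1 receptors differed between GFP+ and GFP- cells. In odorant mice 9 of 26 were higher in GFP+ cells and 3 lower, and in vehicle mice 11 were higher and 4 lower (limma, Benjamini-Hochberg adjusted p under 0.05 over all 22206 probesets). Among all gene probesets, 3.57% were called higher and 7.84% lower with odorant, and 7.76% higher and 9.97% lower with vehicle. An unadjusted p under 0.05 was reached by 17 of the 26 in each treatment, beside 22.2% of all gene probesets with odorant and 30.7% with vehicle. The odorant and vehicle comparisons share no array. All 9 receptors called higher with odorant were also called higher with vehicle, all 3 called lower were also called lower with vehicle, and 0 were called in opposite directions. Olfr424 was 15.2-fold higher in GFP+ cells with odorant and 7.67-fold higher with vehicle. Olfr1406 was at least 45.6-fold lower with odorant and at least 68-fold lower with vehicle, and Olfr231 at least 23.4-fold and 27.5-fold lower, bounds that do not rank the receptors. Over the 26 receptors the 2 sets of differences correlated with r = 0.98 (Spearman rho 0.95). This describes receptors measured on the same arrays, which share array and background effects.

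**Figure D1:**
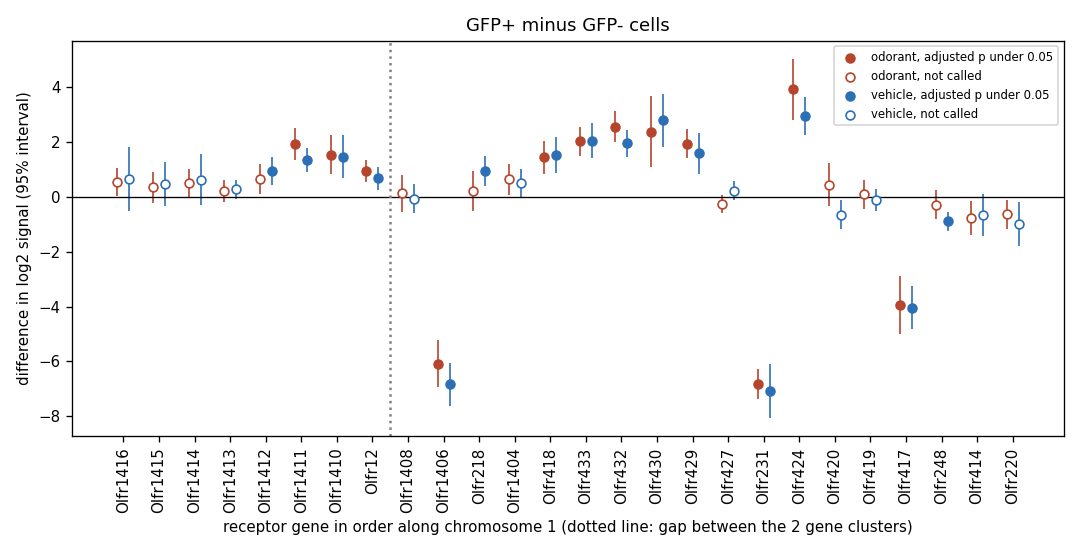
Difference in log2 signal, GFP+ minus GFP- cells, for each of the 26 receptors in their order along chromosome 1, with odorant and with vehicle (4 arrays against 4 each). Bars are 95% intervals of the limma fit and filled points passed an adjusted p of 0.05. The 8 receptors of the first cluster all lie above 0, and Olfr1406, Olfr231 and Olfr417 in the second lie far below it.

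Within the second cluster, 6 of the higher receptors lie between Olfr418 and Olfr424. Along this run Olfr418, Olfr433, Olfr432, Olfr430, Olfr429 and Olfr424 were called higher in both treatments. It is broken by Olfr427, which was at background throughout, and by Olfr231, which was lower.

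Olfr424 had 11.50, 12.11, 12.28 and 12.88 in GFP+ cells with odorant, against 8.03, 7.43, 9.99 and 7.61 in GFP- cells. With vehicle it had 12.18, 12.07, 11.72 and 13.02 in GFP+ cells, against 9.47, 9.28, 9.87 and 8.61 in GFP- cells. The fractions did not overlap in either treatment, and the GFP- arrays of odorant mice were the most scattered. The difference was 3.93 (SE 0.50, adjusted p = 0.00028) with odorant and 2.94 (SE 0.31, adjusted p = 8.9e-05) with vehicle.

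Olfr430 read 9.79, 9.36, 11.16 and 9.17 in GFP+ cells with odorant and 6.07, 6.97, 8.84 and 8.10 in GFP- cells. In vehicle mice its GFP+ values were 10.94, 10.46, 11.29 and 10.69, against 7.37, 8.09, 9.51 and 7.28 in GFP- cells. Array 3 was the highest in each of the 4 groups, and the fractions did not overlap. The GFP+ cells were 5.2-fold higher with odorant (difference 2.38, SE 0.58, adjusted p = 0.02) and 6.89-fold higher with vehicle (2.78, SE 0.43, adjusted p = 0.0011). The odorant call was lost when GFP- array 2 (adjusted p = 0.058) or GFP+ array 3 (adjusted p = 0.053) was left out.

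Olfr432 was measured above background in GFP+ cells, at 8.48, 8.93, 7.89 and 8.46 with odorant, while its GFP- values of 5.92, 6.43, 5.47 and 5.72 were at background. With vehicle it had 8.67, 8.23, 7.76 and 8.53 in GFP+ cells, against 6.09, 6.32, 6.73 and 6.26 in GFP- cells, of which only array 3 exceeded the background. GFP+ cells were therefore at least 3.49-fold higher with odorant and at least 3.03-fold higher with vehicle (adjusted p = 4e-05 and 0.00012). Its neighbour Olfr433 showed the same layout nearer to the background. It had 7.85, 7.60, 7.22 and 7.53 in GFP+ cells with odorant, against 5.81, 5.23, 6.03 and 5.03 in GFP- cells, and 7.16, 7.74, 7.11 and 7.94 with vehicle, against 5.31, 4.75, 6.06 and 5.65. No GFP- array exceeded the background, which bounds the difference at 1.88-fold or more with odorant and 1.75-fold or more with vehicle (adjusted p = 0.00015 and 0.0006).

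Olfr429 had 8.94, 8.96, 9.64 and 9.49 in GFP+ cells with odorant, against 7.26, 6.84, 7.38 and 7.83 in GFP- cells. With vehicle the values were 9.65, 8.83, 8.98 and 9.30 in GFP+ cells, against 8.02, 6.65, 7.39 and 8.37 in GFP- cells. The fractions stayed apart in both treatments, at 3.82-fold with odorant (adjusted p = 0.0002) and 3-fold with vehicle (adjusted p = 0.0086). Olfr418, at the other end of the run, had 11.90, 11.15, 12.46 and 11.91 in GFP+ cells with odorant, against 9.92, 10.56, 10.64 and 10.54 in GFP- cells. Its vehicle values were 12.07, 10.83, 12.42 and 11.95 in GFP+ cells, against 10.02, 10.27, 10.50 and 10.33. Array 2 was the lowest of the GFP+ values in both treatments and still lay above every GFP- array. The GFP+ cells were 2.71-fold (adjusted p = 0.0039) and 2.9-fold (adjusted p = 0.0045) higher with odorant and with vehicle.

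**Figure D2:**
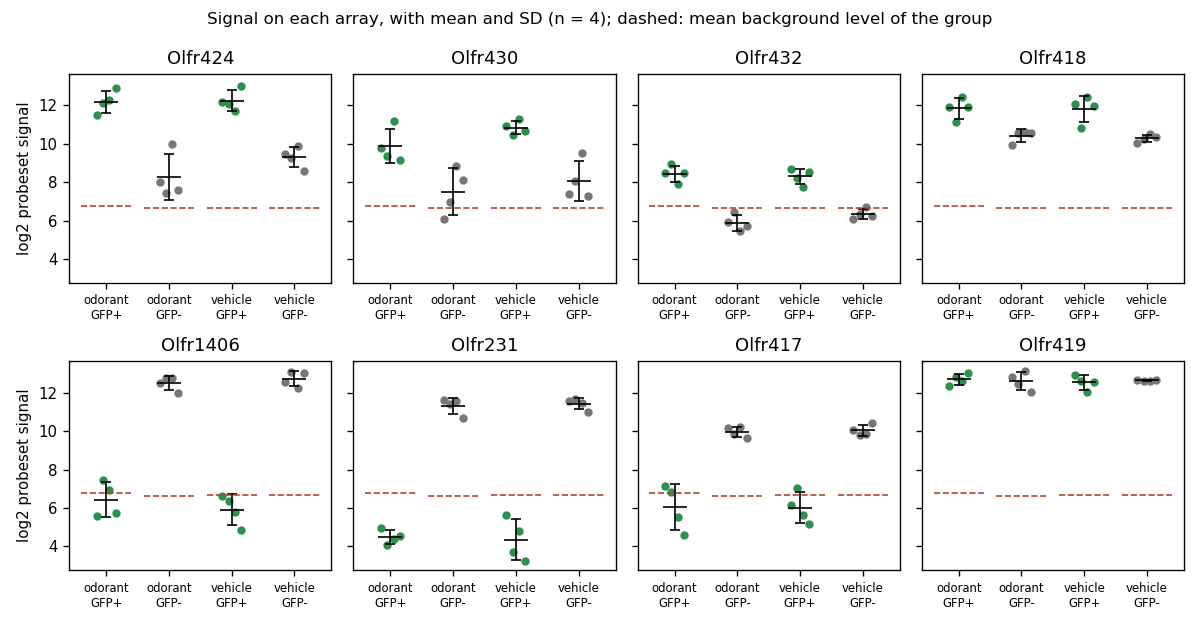
Log2 probeset signal of 8 receptors on each of the 16 arrays, by group, with the mean and SD (n = 4) in black and the group's mean background level dashed. Olfr424, Olfr430, Olfr432 and Olfr418 lie higher in GFP+ cells, Olfr1406, Olfr231 and Olfr417 lie higher in GFP- cells, and Olfr419 lies at about the same signal in all groups.

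Olfr1406, Olfr231 and Olfr417 were called lower in GFP+ cells in both treatments, with GFP+ means under the background level. Olfr1406 had 5.59, 7.44, 6.96 and 5.72 in GFP+ cells with odorant, against 12.52, 12.78, 12.76 and 11.99 in GFP- cells. With vehicle it had 6.65, 6.36, 5.79 and 4.87, against 12.57, 13.11, 12.27 and 13.02. Its GFP+ signal exceeded the background on 2 arrays with odorant and 1 with vehicle, and the fractions did not overlap. GFP+ cells were at least 45.6-fold lower with odorant (adjusted p = 1.6e-06) and at least 68-fold lower with vehicle (adjusted p = 7.7e-07).

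Olfr231 was at background on every GFP+ array, at 4.96, 4.08, 4.36 and 4.52 with odorant and 5.64, 3.71, 4.80 and 3.25 with vehicle. In GFP- cells it had 11.62, 11.39, 11.57 and 10.67 with odorant and 11.60, 11.67, 11.44 and 11.02 with vehicle. GFP+ cells were thus at least 23.4-fold lower with odorant and at least 27.5-fold lower with vehicle (adjusted p = 3.3e-08 and 2.3e-06). Both neighbours of Olfr231 on the chromosome differ from it, since Olfr427 was at background in both fractions and Olfr424 was higher in GFP+ cells.

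Olfr417 had 7.15, 6.86, 5.53 and 4.58 in GFP+ cells with odorant, against 10.19, 9.85, 10.20 and 9.64 in GFP- cells. In vehicle mice it had 6.18, 7.06, 5.65 and 5.15, against 10.09, 9.81, 9.85 and 10.44. The GFP- arrays were tight and the GFP+ arrays scattered around the background, which 2 exceeded with odorant and 1 with vehicle. GFP+ cells were at least 8.77-fold lower with odorant and at least 9.82-fold lower with vehicle (adjusted p = 0.00018 and 2.1e-05). The fractions of these 3 receptors did not overlap in either treatment. It follows that their GFP+ array was below the GFP- array in each of the 8 pools. The fourth call with vehicle, Olfr248 (difference -0.90, SE 0.15, adjusted p = 0.0019), is a difference between signals that were all at background, with 2.26 to 2.84 on the GFP+ arrays against 3.33 to 3.46 on the GFP- arrays, so no fold is given.

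In the first cluster all 8 receptors had a positive difference between GFP+ and GFP- cells in both treatments (median 0.60 with odorant and 0.66 with vehicle). The median was 0.32 and 0.27 over the 1054 numbered Olfr probesets outside the 26, and 0.10 and 0.08 over all gene probesets. Olfr1413 was at background, and most of the 8 differences did not pass with odorant. With odorant 3 were called higher and 0 lower, and with vehicle 4 and 0. Of the 1054 Olfr probesets outside the 26, 34.1% were higher and 24.8% lower with odorant, and 34.9% and 25.7% with vehicle. Over all gene probesets 3.57% and 7.84% were, and 7.76% and 9.97% with vehicle. The called receptors stand side by side at the end of the cluster nearest Olfr12, and the 4 at the other end, Olfr1416, Olfr1415, Olfr1414 and Olfr1413, passed in neither treatment. A split at gaps of 100000 bases leaves the first cluster whole and divides the second into groups of 5, 9 and 4. In the last of these, Olfr417 to Olfr220, all 4 differences were negative in both treatments. Among them Olfr248 was at background on every array, and only Olfr417 was called lower in both treatments.

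Olfr1410 had 11.63, 12.61, 11.71 and 11.22 in GFP+ cells with odorant, against 9.50, 10.61, 10.59 and 10.30 in GFP- cells. With vehicle it had 11.87, 12.61, 11.68 and 10.74 in GFP+ cells, against 10.25, 10.65, 10.46 and 9.68. The GFP+ arrays all lay above the GFP- arrays, by 2.91-fold on average with odorant (adjusted p = 0.0074) and 2.76-fold with vehicle (adjusted p = 0.016). Olfr1411 was above background in GFP+ cells only, at 6.92, 7.26, 7.64 and 7.40 with odorant, against 4.72, 5.12, 5.69 and 5.95 in GFP- cells, and at 7.15, 7.50, 7.52 and 6.75 with vehicle, against 6.0, 5.84, 6.12 and 5.61. That places GFP+ cells at least 1.59-fold higher with odorant and at least 1.47-fold higher with vehicle (adjusted p = 0.00046 and 0.00089).

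Olfr12 had 8.59, 8.92, 8.63 and 9.26 in GFP+ cells with odorant, against 7.87, 7.70, 7.93 and 8.08 in GFP- cells. With vehicle the fractions overlapped, at 8.75, 8.92, 8.82 and 8.45 in GFP+ cells and 8.54, 7.71, 8.0 and 8.01 in GFP- cells. Its difference was 0.95 (SE 0.18, adjusted p = 0.0042) with odorant and 0.67 (SE 0.19, adjusted p = 0.035) with vehicle, and the vehicle call was lost with the pool as a block (adjusted p = 0.052) and in 6 of the 8 fits that left out an array. Olfr1412 was higher with vehicle (difference 0.93, SE 0.23, adjusted p = 0.018) and had 0.66 (SE 0.24, adjusted p = 0.13) with odorant. Its fractions overlapped in both treatments. The vehicle call was kept in the 8 fits that left out an array and lost without all arrays numbered 4 (adjusted p = 0.088). Olfr218, in the second cluster, was called with vehicle as well (difference 0.95, SE 0.25, adjusted p = 0.024) and had 0.21 (SE 0.32) with odorant. That call was lost in 6 of the 8 fits without an array. For these 2 receptors the interaction (odorant effect of the GFP+ fraction less that of the GFP- fraction) had adjusted p values of 0.97 and 0.96, so a difference between treatments was not shown.

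The remaining 11 receptors passed in neither treatment. Olfr419 had 12.36 to 13.02 in GFP+ cells with odorant and 12.07 to 13.16 in GFP- cells, and 12.04 to 12.94 and 12.63 to 12.66 with vehicle. Its intervals of -0.45 to 0.62 with odorant and -0.51 to 0.30 with vehicle lie within -1 and 1 log2 units, at a signal far above the background. Olfr1408 was similar, with intervals of -0.55 to 0.81 and -0.58 to 0.45. Olfr220 (difference -0.64 with odorant and -0.97 with vehicle) and Olfr414 (-0.77 and -0.66) had intervals that reached beyond -1. These were -1.17 to -0.11 and -1.77 to -0.18 for Olfr220, and -1.38 to -0.16 and -1.42 to 0.10 for Olfr414. With the pool as a block Olfr220 passed with vehicle (adjusted p = 0.027), and its GFP+ array was the lower in 7 of 8 pools. Olfr1404 was the reverse, with its GFP+ array the higher in 8 of 8 pools and differences of 0.63 and 0.50 that did not pass. Olfr1413, Olfr427 and Olfr420 were at background on every array and have no measured fold.

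The same counts were taken over the other receptors of the array. Of 1054 other numbered Olfr probesets, 34.1% were higher and 24.8% lower in GFP+ cells with odorant, beside 34.6% and 11.5% of the 26. With vehicle the shares were 34.9% and 25.7% of the others, beside 42.3% and 15.4% of the 26. The median difference was 0.47 over the 26 and 0.32 over the others with odorant, and 0.57 and 0.27 with vehicle. No test was made of these shares.

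Subtracting each array's median moved the median difference of all gene probesets from 0.10 to 0.42 with odorant and from 0.08 to 0.45 with vehicle. The GFP+ arrays had medians of 6.29 to 6.38 and the GFP- arrays 6.64 to 6.76. The subtraction raised the receptors called higher to 14 in each treatment and left 3 and 4 lower. Over all genes it moved the calls with odorant to 7757 higher and 1520 lower, beside 793 and 1742 in the values as deposited. With vehicle it moved them to 10363 and 1687, beside 1723 and 2213. Without the arrays numbered 4, 9 receptors were higher and 3 lower with odorant and 8 and 4 with vehicle. Over all gene probesets these fits called 507 higher and 1457 lower with odorant, and 1063 and 1939 with vehicle.

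Other cell types moved with the sort. Of 9 immune marker probesets 8 were lower in GFP+ cells in each treatment, with a mean log2 level of 6.06 to 6.51 over GFP+ arrays and 10.5 to 11.7 over GFP- arrays with odorant, and 6.42 to 6.98 and 10.7 to 12 with vehicle. The T and B cell genes Cd3e and Cd79a were at background on all odorant arrays, and the neutrophil gene S100a8 was lower by at least 157-fold with odorant and at least 281-fold with vehicle. Immature neuron markers were lower in 6 of 8 with odorant and 7 of 8 with vehicle, at 8.09 to 8.23 in GFP+ and 10.5 to 10.9 in GFP- arrays and at 7.95 to 8.3 and 10.7 to 11, counting Neurog1, which was called lower in each while at background on every array. Among them Nhlh1, a transcription factor of young neurons, was at least 11.1-fold lower with odorant and at least 11.7-fold lower with vehicle.

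Sustentacular markers, of the supporting cells, were lower in 3 of 7 with odorant (7.49 to 9 in GFP+ and 9.68 to 11.1 in GFP- arrays) and in 6 of 7 with vehicle (8.07 to 8.36 and 9.93 to 10.7). All 6 microvillar and tuft cell markers were lower in each treatment (5.2 to 5.7 and 8.46 to 9.42 with odorant, 5.13 to 5.41 and 8.46 to 9.01 with vehicle). The same held for all 4 markers of globose basal and cycling cells (4.17 to 4.64 and 6.42 to 7.68, then 4.3 to 4.81 and 6.62 to 8.05), although Cdk1 was at background on every array. Bowman gland markers were lower in 3 of 4 in each (6.79 to 8.11 and 8.4 to 10.3, then 6.52 to 7.09 and 8.48 to 9), and the red blood cell gene Alas2 was lower in each as well (6.09 to 6.81 and 6.81 to 8.32, then 5.94 to 6.86 and 7.98 to 9.91). The horizontal basal cell genes Krt5, Krt14 and Trp63 were at background on every array. The part of these cells in the receptor differences was not tested.

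The mature neuron marker Omp was at 18.69 ± 0.051 in GFP+ and 18.59 ± 0.069 in GFP- cells with odorant, and at 18.67 ± 0.011 and 18.63 ± 0.072 with vehicle (SD, n = 4), and did not pass. With array medians subtracted it passed in both, at 0.41 in each (adjusted p = 0.037 with odorant and 0.022 with vehicle). Of 6 mature neuron genes 0 were called with odorant and 1 was higher with vehicle, the cyclase gene Adcy3 (1.33-fold, adjusted p = 0.045). Activity-dependent genes were higher in 5 of 7 with odorant and 6 of 7 with vehicle. The reporter's gene S100a5 was higher by 2.21-fold with odorant (adjusted p = 0.0025) and 1.91-fold higher with vehicle (adjusted p = 0.0024). Kirrel2, an adhesion molecule of olfactory axons, had a difference of 1.06 with odorant that did not pass (adjusted p = 0.16), though it did with the pool as a block (adjusted p = 0.0029) and with array medians subtracted (1.38, adjusted p = 0.028), and was 3.03-fold higher with vehicle (adjusted p = 0.0001).

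Of 15 genes of receptor export and transduction, 2 were higher and 0 lower in GFP+ cells with odorant, and 5 and 0 with vehicle. Pde1c, a phosphodiesterase of the cilia, was 1.61-fold higher with odorant (adjusted p = 0.0065) and 1.57-fold higher with vehicle (adjusted p = 0.0085). Of 14 genes that take part in the choice of a receptor gene, 0 were higher and 1 lower with odorant, and 2 and 1 with vehicle. Over all gene probesets 3.57% were higher and 7.84% lower with odorant, and 7.76% and 9.97% with vehicle. Counts this small were not tested against those shares. The choice gene lower in both treatments was Lbr, the lamin B receptor of the nuclear envelope (difference -0.95, SE 0.26, adjusted p = 0.04 with odorant, and -1.08, SE 0.23, adjusted p = 0.0076 with vehicle). Ebf1, a transcription factor that binds receptor promoters, was 1.36-fold higher with vehicle (adjusted p = 0.029) and had a difference of 0.09 with odorant. Lhx2, a homeodomain factor, and its cofactor Ldb1, named here after their values were seen, passed in neither, with differences of -0.18 to -0.03.

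RefSeq sequence of the windows 250 bases before to 50 bases after the gene starts (GRCm38.p6) was at hand for 24 of the 26 receptors, all but Olfr231 and Olfr220. Both letter patterns searched are textbook features of receptor promoters: CCCNNGGG, the core of the Olf/Ebf site, and TAATNA, a homeodomain core, on either strand. Most of these gene models span little more than a coding sequence, so a window may lie away from the true transcription start. CCCNNGGG was found in 0 of the 24 windows, so the patterns do not overlap there, and in 3.07% of 944 windows of numbered Olfr genes and 13.7% of all 32851 windows of the table. TAATNA was found in 12 of 24 (50%), against 65.9% of Olfr windows and 26.5% of all windows. By call with vehicle, it was in 5 of 11 higher receptors, all from the run between Olfr433 and Olfr424, in 3 of 3 lower and in 4 of 10 not called. The 3 lower were Olfr1406, Olfr417 and Olfr248, and Olfr248 was at background on every array. The windows of Olfr417 and Olfr248 were also alike, with 77.1% identity over 271 aligned bases. The windows of the receptors with the smallest p in each direction with vehicle are shown, apart from Olfr231, 5′ to 3′ to place these letters beside the values above, with TAATNA matches on either strand in capitals. The first 3 were higher in GFP+ cells and the last 2 lower.
Olfr424 (chr1:174136496-174136795, plus strand): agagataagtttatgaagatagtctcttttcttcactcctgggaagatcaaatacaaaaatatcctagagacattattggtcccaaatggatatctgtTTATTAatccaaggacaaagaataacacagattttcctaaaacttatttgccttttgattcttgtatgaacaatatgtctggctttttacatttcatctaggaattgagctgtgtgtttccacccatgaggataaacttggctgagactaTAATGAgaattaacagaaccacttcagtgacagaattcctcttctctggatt
Olfr432 (chr1:174050125-174050424, plus strand): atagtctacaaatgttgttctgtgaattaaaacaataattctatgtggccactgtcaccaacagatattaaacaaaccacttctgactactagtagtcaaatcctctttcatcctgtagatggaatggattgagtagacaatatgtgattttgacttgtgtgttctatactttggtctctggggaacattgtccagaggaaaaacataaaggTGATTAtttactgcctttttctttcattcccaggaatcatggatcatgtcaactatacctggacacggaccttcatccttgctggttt
Olfr433 (chr1:174041683-174041982, plus strand): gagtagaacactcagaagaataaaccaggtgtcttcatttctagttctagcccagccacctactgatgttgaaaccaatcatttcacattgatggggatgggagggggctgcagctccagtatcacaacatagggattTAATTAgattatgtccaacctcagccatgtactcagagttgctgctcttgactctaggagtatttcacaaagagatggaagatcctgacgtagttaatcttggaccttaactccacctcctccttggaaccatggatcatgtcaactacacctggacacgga
Olfr1406 (chr1:173184455-173184754, minus strand): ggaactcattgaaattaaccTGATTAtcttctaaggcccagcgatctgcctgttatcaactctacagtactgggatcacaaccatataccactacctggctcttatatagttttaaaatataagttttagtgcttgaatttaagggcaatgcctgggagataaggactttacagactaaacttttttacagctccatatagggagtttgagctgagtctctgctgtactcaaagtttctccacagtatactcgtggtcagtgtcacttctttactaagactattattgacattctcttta
Olfr417 (chr1:174368669-174368968, plus strand): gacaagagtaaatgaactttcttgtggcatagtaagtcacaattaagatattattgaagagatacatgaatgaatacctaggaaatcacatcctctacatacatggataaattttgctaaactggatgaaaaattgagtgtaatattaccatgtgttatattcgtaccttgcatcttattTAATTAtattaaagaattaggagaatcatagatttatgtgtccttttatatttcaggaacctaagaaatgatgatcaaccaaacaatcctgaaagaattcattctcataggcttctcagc
Olfr424 holds 2 matches and the other 4 hold 1 each, so these letters stand in windows of both directions.

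How far the receptors varied between pools was described next. Over the 13 receptors above background on all arrays, the mean of both fractions of a pool ranged over 0.44 (Olfr12) to 2.04 log2 units (Olfr1416), with a median range of 1. Olfr430, above background on 15 of 16 arrays, ranged over 2.47, between 7.93 in odorant pool 1 and 10.4 in vehicle pool 3. With odorant Olfr1416 had 11.53, 10.85, 10.80 and 10.62 in GFP+ cells, against 9.99, 10.68, 10.26 and 10.70 in GFP- cells. With vehicle it had 11.67, 10.05, 11.89 and 9.92 in GFP+ cells, against 10.26, 9.92, 11.43 and 9.32 in GFP- cells. Its highest and lowest pools were both vehicle pools.

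With vehicle, its 2 neighbours followed the same pools. Olfr1414 had 8.90, 7.38, 8.75 and 7.50 in GFP+ cells with vehicle, against 7.53, 7.28, 8.43 and 6.76 in GFP- cells. Olfr1415, near the background, had 7.92, 7.41, 7.63 and 6.62, against 7.41, 6.97, 7.39 and 5.93. In both fractions of the vehicle mice, pools 1 and 3 were above pools 2 and 4 for all 3 receptors. With odorant, the highest mean of both fractions was in pool 1 for Olfr1414 (8.55) and in pool 2 for Olfr1415 (7.73). The lowest was in pool 3 for both (7.79 and 7.04), and Olfr1416 ranged only from 10.53 to 10.76. These pool levels were chosen for description after their values were seen.

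**Figure D3:**
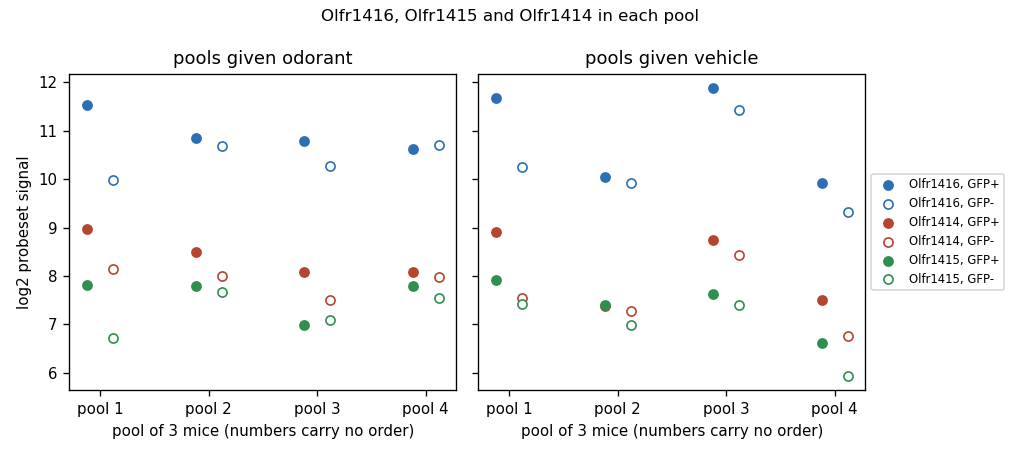
Log2 probeset signal of Olfr1416, Olfr1414 and Olfr1415, the 3 neighbours at the start of the first cluster, in GFP+ (filled) and GFP- (open) cells of each pool of 3 mice. In the vehicle pools 1 and 3 lie above 2 and 4 for all 3 genes in both fractions, and in odorant pool 1 Olfr1416 had 11.53 in GFP+ cells against 9.99 in GFP- cells.

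The windows of Olfr1416 and Olfr1415 are shown because they carry a common stretch, which bears on whether their probesets can be read apart. Of 276 pairs of windows, theirs had the longest shared run, 121 bases that end at the last base of each window, against a median of 8 bases over all pairs and 20 bases for the next pair, Olfr1410 and Olfr12. Capitals mark the shared run.
Olfr1416 (chr1:92480570-92480869, minus strand): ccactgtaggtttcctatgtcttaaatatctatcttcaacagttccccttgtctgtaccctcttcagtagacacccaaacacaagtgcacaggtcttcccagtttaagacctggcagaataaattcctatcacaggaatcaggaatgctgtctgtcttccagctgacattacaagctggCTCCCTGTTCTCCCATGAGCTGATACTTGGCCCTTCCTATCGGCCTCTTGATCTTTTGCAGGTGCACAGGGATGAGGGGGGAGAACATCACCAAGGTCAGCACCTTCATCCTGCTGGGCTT
Olfr1415 (chr1:92491704-92492003, minus strand): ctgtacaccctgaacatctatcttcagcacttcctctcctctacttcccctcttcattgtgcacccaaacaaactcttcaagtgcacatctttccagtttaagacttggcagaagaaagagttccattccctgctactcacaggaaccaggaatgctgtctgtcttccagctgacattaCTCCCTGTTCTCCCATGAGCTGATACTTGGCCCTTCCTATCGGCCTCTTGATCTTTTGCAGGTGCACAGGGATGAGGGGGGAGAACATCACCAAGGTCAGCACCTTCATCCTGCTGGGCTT
In a global alignment 254 of 278 aligned bases of these windows were identical (91.4%), and Olfr1410 and Olfr12 had 201 of 259 (77.6%). The run reaches into the first 50 bases of both gene models. Whether the probesets of Olfr1416 and Olfr1415 read each other's RNA was not tested, and their values are uncertain as separate measurements. Olfr1414, whose levels followed the same pools with vehicle, is not among the 5 pairs with the longest shared runs.

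The second question was whether the odorant changed any chromosome 1 receptor. In GFP+ cells limma called 0 of 26 higher and 0 lower, with 0% of all gene probesets called in either direction, and 1 of 26 had an unadjusted p under 0.05, beside 3.82% of all gene probesets. In GFP- cells it also called 0 and 0, with 0% of all gene probesets, and 2 of 26 had an unadjusted p under 0.05, beside 6.84%. The median difference over the 26 was 0.07 in GFP+ cells and -0.10 in GFP- cells.

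In GFP+ cells Olfr430 had the smallest p. It was at 9.79, 9.36, 11.16 and 9.17 with odorant, against 10.94, 10.46, 11.29 and 10.69 with vehicle, and the groups overlapped through odorant array 3. The difference was -0.97 (95% interval -1.81 to -0.13, limma adjusted p = 0.999), and it ran between -1.40 and -0.74 over fits that left out an array. Olfr248 (difference 0.34) and Olfr420 (0.50) were at background in both groups. Olfr1406 (0.51, interval -0.52 to 1.54) had GFP+ means of 6.43 ± 0.92 with odorant and 5.92 ± 0.79 with vehicle (SD, n = 4), both under the background level.

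In GFP- cells the smallest p belonged to Olfr218, at 9.01, 8.95, 9.15 and 8.54 with odorant and 8.77, 8.14, 8.30 and 7.99 with vehicle. The groups overlapped, and the difference of 0.61 (interval 0.16 to 1.06, limma adjusted p = 0.71) did not pass. The GFP- groups of Olfr427 (difference 0.40) did not overlap, and all its signals were at background. Olfr432 had -0.47, with GFP- means under the background level. Olfr424 had 8.03, 7.43, 9.99 and 7.61 with odorant, against 9.47, 9.28, 9.87 and 8.61 with vehicle, differing by -1.04 (interval -2.14 to 0.05), and odorant array 3 lay above every vehicle array.

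**Figure D4:**
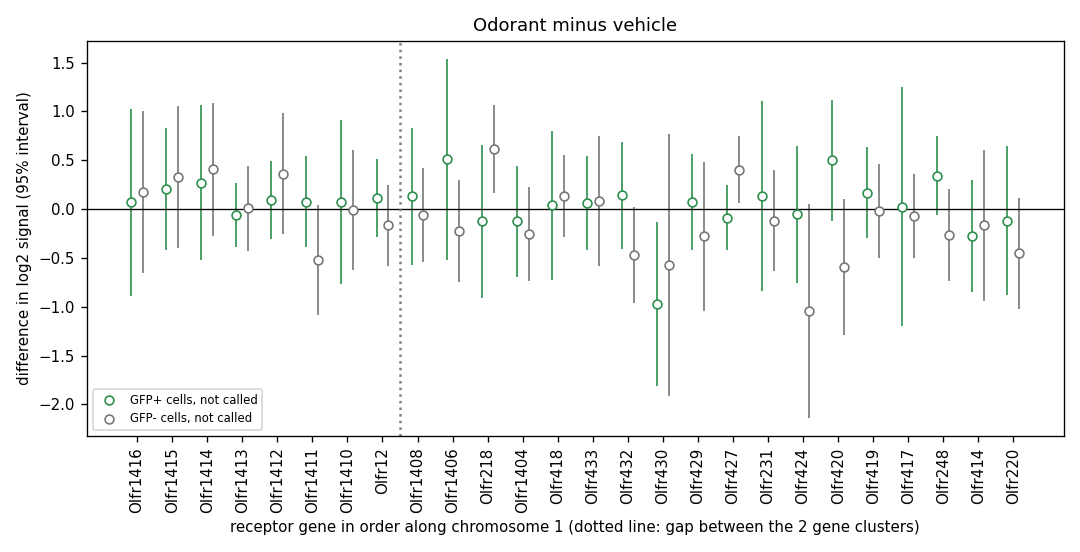
Difference in log2 signal, odorant minus vehicle, for each of the 26 receptors along chromosome 1, in GFP+ and in GFP- cells (4 arrays against 4 each), with 95% intervals of the limma fit. Open points did not pass an adjusted p of 0.05, and the estimates lie between -1.04 and 0.61.

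The intervals bound the size of any change. In GFP+ cells 18 receptors were above background on all 8 arrays, and for 15 of them the whole interval lay between -1 and 1 log2 units. In GFP- cells that held for 11 of 16. Among those receptors the outermost bounds were -1.81 and 1.07 for the GFP+ fraction and -2.14 and 1.08 for the GFP- fraction.

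The interaction called 0 receptors higher and 0 lower, with 0% of all gene probesets, and 2 of 26 had an unadjusted p under 0.05, beside 4.92%. The 4 with the smallest p were Olfr427 (-0.49, SE 0.20), Olfr420 (1.09, SE 0.46), Olfr248 (0.60, SE 0.29) and Olfr432 (0.61, SE 0.35), each with an adjusted p of 0.96. The first 3 were at background on all 16 arrays, and Olfr432 was under it on 7 of 8 GFP- arrays. Among the 12 receptors called in the same direction in both treatments, the lowest unadjusted limma interaction p was 0.10 (Olfr432). They were chosen on these same arrays for like differences, which favours a small interaction, so this is not a test of one.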

How the data were processed

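RNA of sorted cells (50 to 100 ng per array) was labelled with biotin and hybridised to Clariom S arrays, per the labels. Affymetrix Expression Console is the software that the submitters' processing notes name for the deposited log2 signals (version, background correction and normalization not given in the sources used here). All 28846 probesets were read as deposited, with no further scaling, and control probesets were left out, which left 22206. Of these 19572 had 1 gene symbol, 0 several and 2634 none, in the platform annotation. All 26 members matched the RefSeq table by gene ID, with 0 symbols changed. The genome build of the platform's probeset IDs was not given, so RefSeq served for gene order only, and window positions are RefSeq's own (GRCm38.p6).

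Each comparison was fitted with limma 3.58.1 (lmFit, eBayes; R 4.3.3), two-sided, on the 8 arrays of its groups (16 for the interaction), with Benjamini-Hochberg adjustment over all 22206 probesets. Errors are SE of the fit or SD over 4 arrays, and the number of arrays limits precision. A fold against a group at background, or whose mean is under the level, is a lower bound with the background in place of lower values. No fold is given when both are there. The fits were tested on simulated data. Plots used matplotlib 3.10.9.

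Since 24 mice in pools of 3 make 8 pools, same-numbered GFP+ and GFP- arrays within a treatment were taken as 1 pool. Group-centred values of such arrays correlated across genes with r of 0.014 to 0.36 with odorant and 0.11 to 0.16 with vehicle. The best match was the array of the same number for 5 of 8 arrays with odorant and 8 of 8 with vehicle. Between treatments, where the number joins different mice, it was for 4 of 8 in GFP+ and 5 of 8 in GFP- cells. With odorant the correlations therefore do not show the pairing. By rule, each comparison of fractions gave array values for the 8 higher and 8 lower called receptors of smallest p, and the other comparisons the 4 with the smallest p. S100a5, Omp and Kirrel2 and up to 2 genes of each list were also named, and windows were printed for the 3 higher and 3 lower receptors with the smallest p with vehicle. Comparison of receptor proteins was planned and not made, since protein sequences were not used here. The members, lists and named genes were chosen with earlier results of these data known. Alternatives were quantile normalization, subtraction of array medians, a filter on dim probesets (above background on at least 4 arrays), another prior, the replicate block, a 16-array fit, leaving out each array, and another cluster gap. Leaving out all arrays numbered 4 was chosen after seeing the data.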

Additional observations from a re-analysis of the deposited data

Results flagged for a closer look

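In 3 of the 104 sets of 4 arrays (26 receptors in 4 groups), a single array lay far from the other 3 by Dixon's test, which chance gives in about 1 set of 20. Olfr1415 was at 6.99 in GFP+ cells of odorant replicate 3, against 7.79 to 7.81 on the other 3 arrays. Olfr1404 was at 11.3 in GFP+ cells of odorant replicate 2, against 10.5 to 10.6. Olfr418 was at 9.92 in GFP- cells of odorant replicate 1, against 10.5 to 10.6.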

How the results depend on the processing

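The 9 receptors called higher in GFP+ cells with odorant became 14 when array medians were subtracted, gaining Olfr1404, Olfr1412, Olfr1413, Olfr1414 and Olfr1416 and losing none. With vehicle that setting gained Olfr1404, Olfr1413 and Olfr427 (14 higher). Over all 22206 gene probesets it called 7757 higher with odorant and 10363 with vehicle. Over fits without single arrays, 8 to 10 receptors were higher and 3 to 4 lower with odorant, and 9 to 11 and 4 to 5 with vehicle. Quantile normalization kept every call of both comparisons, and the dim filter lost Olfr248 with vehicle. The replicate block kept all calls with odorant, and with vehicle gave 10 higher and 5 lower, losing Olfr12 and gaining Olfr220. It called 0 receptors for the odorant effect, where the replicate number joins different mice and same-numbered arrays correlated with r of -0.034 to 0.25 in GFP+ and -0.10 to 0.31 in GFP- cells, so the number was not taken to pair them. A cluster gap of 100000 bases gave 4 clusters in place of 2, with a lower receptor in 3 of them in place of 1. Signs turned only for differences that were not called. With array medians subtracted, vehicle gave 0.26 for Olfr419 and 0.30 for Olfr1408, and odorant gave 0.0529 for Olfr427 and 0.0237 for Olfr248. Omp with vehicle was -0.0399 after quantile normalization, while with array medians subtracted it passed in both treatments. Without single arrays, Olfr419 ran between -0.24 and 0.0638 and Olfr1408 between -0.23 and 0.0908 with vehicle, and with odorant Olfr218 between -0.14 and 0.45, Olfr1408 between -0.0926 and 0.37 and Olfr419 between -0.10 and 0.27. Without all arrays numbered 4, Olfr419 with odorant was -0.20. For the odorant effect in GFP+ cells, leaving out all arrays numbered 4 called 3 genes of the array higher and 0 lower, and 0 receptors of the 26. The cause of these shifts was not tested. Signals near the background limit the smaller differences.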

Other observations

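Strand of transcription, taken from the RefSeq windows and looked at after the calls were known, was set beside them. Of 18 receptors on the plus strand, 9 were higher and 1 lower in GFP+ cells with odorant, and 11 and 2 with vehicle. Of 6 on the minus strand (Olfr1416, Olfr1415, Olfr1414, Olfr1408, Olfr1406 and Olfr419), 0 were higher and 1, Olfr1406, lower in each treatment. Olfr231, lower in both treatments, and Olfr220 had no window and are not counted here. Of the 1054 other numbered Olfr probesets, 34.1% were higher and 24.8% lower with odorant, and 34.9% and 25.7% with vehicle. Over all gene probesets the shares were 3.57% and 7.84% with odorant, and 7.76% and 9.97% with vehicle. Many neighbours share a strand, and no test was made.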
